A study of Homo sapiens with 27 samples.

Results

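JHH-7, a human hepatocellular carcinoma line, was compared after CRISPR guides against KLB (sgKLB) and after guides against FGFR4 (sgFGFR4). Each group has 3 RNA-seq libraries, so the comparison rests on 6 of the 27 libraries of the study. The other 21 are JHH-7 with non-targeting guides (sgNTC), with guides against FGFR3 and FGFR4 (sgFGFR3/4) or against FGFR1, FGFR3 and FGFR4 (sgFGFR1/3/4), and the line HuH-7 with sgNTC, sgKLB, sgFGFR4 or sgFGFR3/4. All cells were grown in serum-containing medium, and no added FGF19 is named in the labels. The labels do not say whether a group is 1 clone or a pool of edited cells, and no editing rate or protein level was analysed here. Genes entered when their level reached 1 FPKM (fragments per kilobase of transcript, scaled to the library's total) in at least 3 JHH-7 libraries. This kept 14987 of 58735 genes, and the other 43748 were not tested. The third-highest library value lay between 1 and 1.1 FPKM for 306 of the genes kept and between 0.9 and 1 FPKM for 323 of those left out.

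FGF19 is a hormone-like growth factor that binds FGFR4 on liver cells with the help of KLB (beta-klotho), a membrane co-receptor. FGFR4 is a receptor tyrosine kinase, and its activation feeds the RAS, RAF, MEK and ERK cascade and restrains bile acid synthesis. KLB can also serve other FGF receptors, whereas loss of FGFR4 leaves KLB and the other receptors in place. The comparison therefore sets cells edited in the shared co-receptor beside cells edited in its main partner receptor in the liver.

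The 6 libraries had estimated depths of 16.1 M to 19.5 M fragments and between 13693 and 13851 genes at 1 FPKM or more. All 14 hepatocyte lineage markers were at 1 FPKM or more in every one of them. Of 18 stromal, endothelial and immune markers, 8 passed the filter, and KDR and MS4A1 were listed at 0 in all 6. The labels call the libraries biological replicates without saying how the cultures were separated, so p-values measure the spread between libraries of a group. Within JHH-7 that spread, and the SE with it, was estimated over all 15 JHH-7 libraries and not over the 6 alone. Differences are sgKLB minus sgFGFR4 in log2(FPKM + 1), with the standard error (SE) after ±. The added 1 makes a difference at low FPKM smaller than the true ratio. Adjusted p-values come from limma and cover all genes tested.

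KLB and FGFR4 transcripts followed the guides. KLB (ENSG00000134962; GRCh38 chromosome 4, 39406853 to 39451536) was at 7.66, 6.96 and 7.13 FPKM in the sgKLB libraries and at 17.4, 17.8 and 18.1 FPKM in the sgFGFR4 libraries. The groups did not overlap, and the sgNTC libraries, at 15.3, 15.3 and 15.8 FPKM, lay just below sgFGFR4. The difference was -1.19 ± 0.083 (adjusted p 2.68e-07). FGFR4 (ENSG00000160867; chromosome 5, 177086886 to 177098144) was at 152, 147 and 147 FPKM in sgKLB and at 69.7, 71.6 and 67.8 FPKM in sgFGFR4. The sgKLB values lay among those of sgNTC, which were 147, 154 and 144 FPKM, and all were above every sgFGFR4 library (difference 1.08 ± 0.0822, adjusted p 5.98e-07). Both targeted transcripts were thus still detected after editing, and their levels do not measure the protein.

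The ligand gene itself differed between the knockouts. FGF19 (ENSG00000162344; chromosome 11, 69698232 to 69704642) was at 43.9, 47.7 and 45.9 FPKM in sgKLB, at 97.9, 117 and 121 FPKM in sgFGFR4 and at 175, 192 and 164 FPKM in sgNTC. The 3 groups did not overlap, with sgKLB lowest and sgNTC highest. The difference between the knockouts was -1.26 ± 0.0869 (adjusted p 2.35e-07). FGF21, a related hormone that also signals through KLB, was at 0.19, 0.22 and 0 FPKM in sgKLB and at 2.73, 1.93 and 2.95 FPKM in sgFGFR4 (difference -1.63 ± 0.2, adjusted p 4.94e-05), so it was low in both and near 0 in sgKLB.

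Of the receptors that no guide of these 2 groups targeted, FGFR3 and FGFR2 were higher in sgKLB and FGFR1 did not pass. FGFR3 was at 112, 122 and 117 FPKM in sgKLB against 87.1, 89.1 and 96.9 FPKM in sgFGFR4 (difference 0.36 ± 0.0659, adjusted p 0.00134). FGFR2 was at 21.2, 16.6 and 15.7 against 11.7, 11.9 and 12 FPKM (difference 0.54 ± 0.123, adjusted p 0.00667). For both genes every sgKLB library lay above every sgFGFR4 and every sgNTC library. FGFR1 was at 11, 10.6 and 15.8 FPKM in sgKLB and at 14.4, 14.2 and 13.8 FPKM in sgFGFR4. Its sgKLB libraries spread on both sides of sgFGFR4, and the difference did not pass (-0.19 ± 0.149, adjusted p 0.422). Of the 20 FGF receptor pathway components past the filter, 4 were higher (FGFR4, FGFR3, FGFR2 and the adaptor GAB1) and 3 lower (KLB, FGF19 and FGF21). The call of GAB1 was lost in 8 of 15 alternatives. These counts include the guide targets FGFR4 and KLB themselves, and over all genes 9.27% were higher and 10.1% lower.

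**Figure D1:**
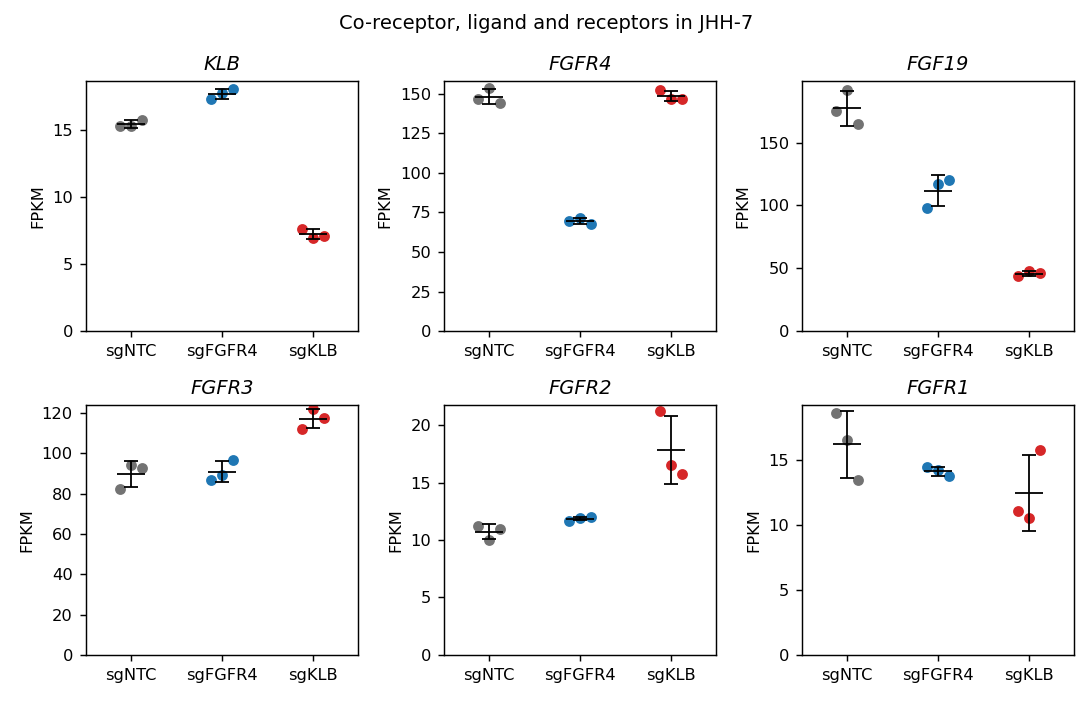
FPKM of the co-receptor KLB, the ligand FGF19 and the 4 receptors in the JHH-7 libraries of sgNTC, sgFGFR4 and sgKLB. Points are libraries and bars the mean and SD (n = 3). KLB is low only in sgKLB and FGFR4 only in sgFGFR4 among these 3 groups, and FGF19 is lowest in sgKLB.

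Across the transcriptome the knockouts were far apart. Of 14987 genes, 2900 passed an adjusted p of 0.05 (19.4%), 1389 of them higher in sgKLB (9.27%) and 1511 lower (10.1%). At an unadjusted p under 0.05 there were 4762 genes. A difference of at least 1 was reached by 216 higher and 168 lower genes, and one of at least 2 by 12 higher and 20 lower genes. The median difference over all genes was -0.03. Against the shared sgNTC libraries, sgKLB differed in 4781 genes (31.9%) and sgFGFR4 in 637 (4.25%). The sgFGFR4 count depended on single libraries: it was 222 without sgFGFR4 replicate 1, 264 without sgFGFR4 replicate 2, 842 without sgFGFR4 replicate 3, 418 without sgNTC replicate 1 and 276 without sgNTC replicate 2. In a fit of the 6 libraries alone, sgKLB and sgFGFR4 differed in 2576 genes, and 2309 of these were among the 2900.

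Among called protein-coding genes with separate groups, whose log2(FPKM + 1) averages at least 3 over the 6 libraries, the 5 largest drops in sgKLB were all genes of the ATF4 and amino acid response list. DDIT4, an inhibitor of mTORC1 signalling, was at 21.2, 43.8 and 26.6 FPKM in sgKLB and at 233, 277 and 290.0 FPKM in sgFGFR4 (difference -3.15 ± 0.183, adjusted p 4.79e-08). CHAC1, a glutathione-degrading enzyme, was at 7.78, 24.7 and 9.71 against 95, 98.6 and 91.8 FPKM (difference -2.84 ± 0.274, adjusted p 7.08e-06), with sgKLB replicate 2 the highest of its group. For both genes the groups lay far apart and the sgNTC libraries were highest, at 479, 524 and 458 FPKM for DDIT4 and at 110.1, 129.5 and 122 FPKM for CHAC1. GDF15, a secreted stress hormone, was at 76.7, 91.2 and 76.3 FPKM in sgKLB, 344, 462 and 681 FPKM in sgFGFR4 and 1426, 1742 and 1371 FPKM in sgNTC (difference between the knockouts -2.54 ± 0.175, adjusted p 2.39e-07). STC2, a secreted glycoprotein, differed by -2.68 ± 0.178, and ASNS, the remaining gene of the 5, is described below. INHBE, the activin E subunit made by liver cells, was not among the 5 and differed by -2.21 ± 0.161.

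Other large drops fell outside that list. DUSP5, a nuclear phosphatase of ERK, was at 16.9, 19.9 and 18.6 FPKM in sgKLB against 81.9, 94.4 and 108 FPKM in sgFGFR4 (difference -2.29 ± 0.0995, adjusted p 7.28e-09). S100A9, a calcium-binding protein of inflammation, was at 39.4, 46.1 and 46.5 against 214, 226 and 229 FPKM (difference -2.32 ± 0.236, adjusted p 1.17e-05). HOXB9, a homeobox factor, and TCIM, a regulator linked to WNT signalling, were lower by 2.12 and 2.30. The choice of these genes asked for separate groups, so every sgKLB library lay below every sgFGFR4 library by that rule. In these 4 genes, as in the ATF4 genes just named, every sgFGFR4 library also lay below every sgNTC library, which the rule did not ask for.

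Enzymes and secreted proteins of the mature liver were prominent in the other direction, where 3 of the 12 largest gains under the same limits were on the list of cytochrome P450 and conjugating enzymes and 3 on the apolipoprotein list. GSTA1, a glutathione transferase abundant in hepatocytes, was at 128, 135 and 129 FPKM in sgKLB, 23.3, 23.1 and 18.8 FPKM in sgFGFR4 and 6.97, 10.9 and 7.79 FPKM in sgNTC. The 3 groups did not overlap, and sgKLB was higher than sgFGFR4 by 2.54 ± 0.137 (adjusted p 2.91e-08). Its neighbour and close copy GSTA2 was higher by 2.18 ± 0.151, and because reads shared by near-identical copies are divided by estimate, the split between them is uncertain. CYP17A1, a steroid hydroxylase, was at 18.2, 18.5 and 17.4 FPKM in sgKLB against 3.74, 3.56 and 3.01 FPKM in sgFGFR4 (difference 2.10 ± 0.131, adjusted p 8.75e-08). SULT2A1, which sulphates steroids and bile acids, was at 56.4, 59.4 and 56.5 against 16.9, 16.1 and 13.4 FPKM (difference 1.83 ± 0.136, adjusted p 5.09e-07). SLC22A7, an organic anion transporter of hepatocytes, was higher by 2.11 ± 0.162 (adjusted p 6.62e-07).

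Secreted lipid proteins were in the same group. APOC3, an inhibitor of triglyceride clearance, was at 952, 1013 and 896 FPKM in sgKLB and at 236, 297 and 288 FPKM in sgFGFR4 (difference 1.80 ± 0.0878, adjusted p 1.68e-08). APOA4 was higher by 1.85 ± 0.124 and LCAT, which esterifies cholesterol in lipoproteins, by 1.84 ± 0.173. The gastrin gene GAST, the chloride channel ANO1 and the heat shock gene HSPA1B were higher by 1.88 ± 0.265, 1.75 ± 0.176 and 1.73 ± 0.121, and HSPA1B shares most of its sequence with HSPA1A. HP, haptoglobin, had the largest fitted difference of these (2.65 ± 0.861) and, among the 12, the highest adjusted p (0.0489). Its libraries were at 40.2, 52.4 and 22.4 FPKM in sgKLB and at 2.69, 18.4 and 1.89 FPKM in sgFGFR4, so sgFGFR4 replicate 2 came close to the lowest sgKLB library. The call was lost in 8 of 15 alternatives, with adjusted p up to 0.160, and HP reads can also match its copy HPR.

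**Figure D2:**
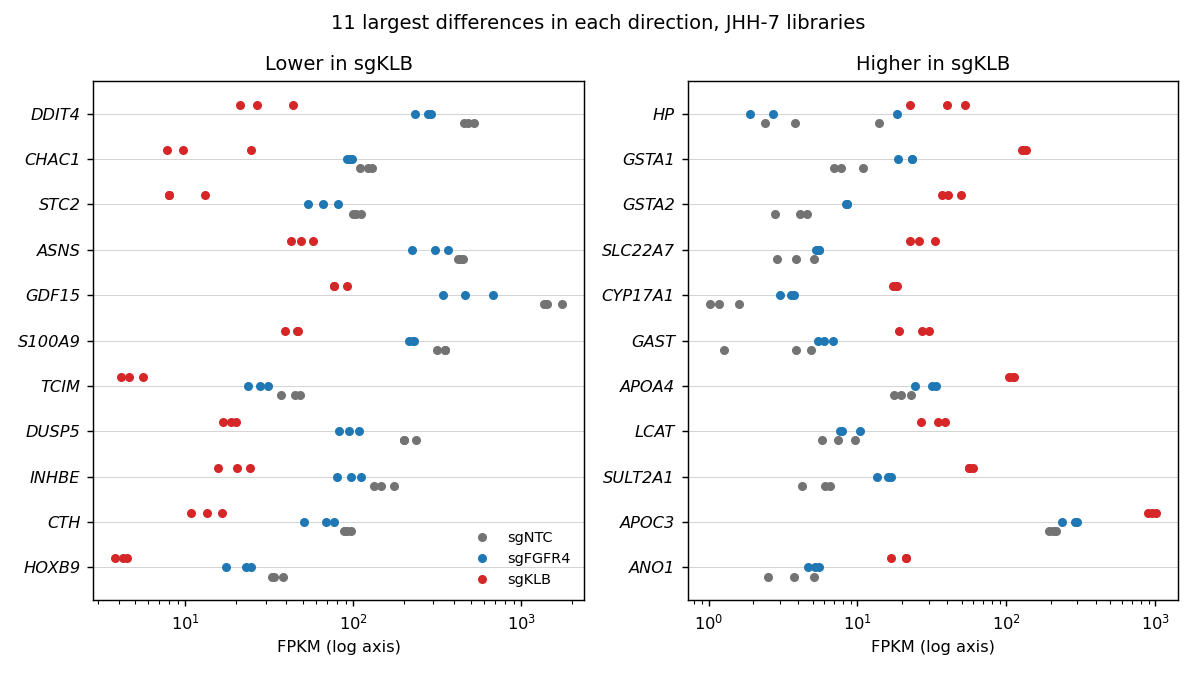
FPKM on a log axis of the 11 genes with the largest drop and the 11 with the largest gain in sgKLB against sgFGFR4, among called protein-coding genes whose groups do not overlap and whose log2(FPKM + 1) averages at least 3. Points are libraries, 3 per group. In the left panel sgKLB lies lowest and sgNTC highest, and in the right panel sgKLB lies highest.

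The ATF4 program was lower in sgKLB almost as a whole. ATF4 is the transcription factor that amino acid shortage and other stresses induce, and its targets make, import and charge amino acids. Of 29 listed genes 27 passed the filter, 26 were lower and 0 higher, with a median of -1.29, where 10.1% of all genes were lower and the median was -0.03. ALDH18A1, at -0.04, was the member that did not pass. Under all alternatives between 25 and 26 were lower. ATF4 itself was at 417, 501 and 474 FPKM in sgKLB against 719.8, 797 and 807 FPKM in sgFGFR4, 2 groups that did not overlap (difference -0.74 ± 0.0723, adjusted p 6.62e-06). ASNS, asparagine synthetase and the classical ATF4 target (chromosome 7), was at 42.4, 57.4 and 49.1 FPKM in sgKLB, 222, 305 and 364 FPKM in sgFGFR4 and 429.6, 449 and 421 FPKM in sgNTC. Again the 3 groups were separate, and the difference between the knockouts was -2.54 ± 0.138 (adjusted p 2.91e-08).

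Further members covered each arm of the response. PSAT1, of serine synthesis, was at 95.1, 90.7 and 92 against 242, 268 and 284 FPKM (difference -1.50 ± 0.0605, adjusted p 6.57e-09). CTH, which makes cysteine, was lower by 2.19 (adjusted p 1.59e-07), and SESN2, a leucine-sensing inhibitor of mTORC1, by 1.89 (adjusted p 3.22e-08). DDIT3, the stress factor CHOP, was at 31.6, 38.5 and 38.1 against 100.1, 111 and 121 FPKM (difference -1.59 ± 0.0825, adjusted p 2.13e-08). TRIB3, a pseudokinase that damps the response, was lower by 1.65 and the related factor ATF5 by 2.10. Set against the shared sgNTC libraries, the median of the 27 was -1.65 for sgKLB and -0.51 for sgFGFR4.

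Amino acid import and tRNA charging moved with it. Of 19 amino acid transporters past the filter 11 were lower and 4 higher (median -0.62). SLC7A1, the importer of arginine and lysine, was at 10.3, 11.9 and 9.09 FPKM in sgKLB against 37.9, 41.5 and 41.9 FPKM in sgFGFR4 (difference -1.86 ± 0.0922, adjusted p 1.68e-08). SLC7A5 and SLC3A2, the 2 chains of a leucine transporter, were lower by 1.63 and 1.14, and the glutamine carrier SLC1A5 by 1.17. The groups of these 4 genes did not overlap. Higher were SLC7A7 (1.04 ± 0.138), SLC38A4 (0.92 ± 0.143), SLC38A3 (0.76 ± 0.215) and SLC36A1 (0.57 ± 0.135), of which SLC38A3 lost its call in 4 of 15 alternatives. Among 20 cytosolic aminoacyl-tRNA synthetases, which load amino acids onto tRNAs, 17 were lower and 0 higher (median -0.69). GARS, for glycine, was at 79.5, 80.8 and 66.6 against 169, 196 and 200.0 FPKM (difference -1.31 ± 0.0762, adjusted p 4.79e-08), and CARS, YARS and SARS were lower by 1.23, 1.03 and 0.98.

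Promoters of these genes were read for the amino acid response element, the short site that ATF4 and its C/EBP partners bind, searched as TGATGNAA on both strands. Windows ran from 250 bases before to 50 after the start of transcription (RefSeq, GRCh38.p14), and a gene counted once. The letters occurred in 7 of 16 tRNA synthetase genes with a window (43.8%), 5 of 15 transporters (33.3%) and 5 of 23 genes of the ATF4 list (21.7%). They occurred in 311 of 10700 genes past the filter (2.91%). A match describes the sequence and does not show binding. Each stretch shown is 30 bases around a match upstream of the start, read 5′ to 3′ on the strand named, with the motif in capitals. Of the 17 genes of the lists with a match, they are the 8 whose whole stretch lies upstream of the start. Of the 17, 16 were lower in sgKLB, and MARS did not pass (adjusted p 0.202). Their lists were mostly lower with or without regard to the motif: 26 of 27 ATF4 list genes, 17 of 20 synthetases and 11 of 19 transporters. The count therefore does not tie a match to a drop.
ASNS, chr7:97872458-97872487, minus strand: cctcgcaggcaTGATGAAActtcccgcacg
CHAC1, chr15:40953251-40953280, minus strand: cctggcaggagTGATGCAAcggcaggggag
CEBPG, chr19:33374060-33374089, plus strand: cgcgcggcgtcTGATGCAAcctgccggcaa
ATF3, chr1:212565205-212565234, plus strand: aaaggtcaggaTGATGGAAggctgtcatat
FGF21, chr19:48755459-48755488, minus strand: ctcctcctcccTGATGCAAtcctggtgttt
SLC1A5, chr19:46784893-46784922, minus strand: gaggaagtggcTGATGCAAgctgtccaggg
GARS, now GARS1, chr7:30594834-30594863, minus strand: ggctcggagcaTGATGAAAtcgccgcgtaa
AARS, now AARS1, chr16:70289675-70289704, plus strand: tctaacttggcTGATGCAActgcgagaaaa
The differences between the knockouts were -2.54 for ASNS, -2.84 for CHAC1, -0.92 for CEBPG, -1.29 for ATF3, -1.63 for FGF21, -1.17 for SLC1A5, -1.31 for GARS and -0.65 for AARS.

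Transcripts that follow ERK activity were lower in sgKLB. Of the 10 genes of the MAPK pathway activity signature 9 passed the filter, 7 were lower and 0 higher (median -1.10). ETV4, an ETS factor induced by FGF signalling, was at 46.3, 52.2 and 51.2 FPKM in sgKLB against 152, 144 and 147 FPKM in sgFGFR4 (difference -1.55 ± 0.0769, adjusted p 1.68e-08). DUSP6, the cytoplasmic ERK phosphatase, was at 19.2, 19.2 and 20.4 against 69.9, 65 and 52.7 FPKM (difference -1.62 ± 0.119, adjusted p 4.52e-07). For DUSP6 the sgFGFR4 and sgNTC libraries overlapped, with sgNTC at 76.7, 59.6 and 74.1 FPKM, and only sgKLB lay apart. SPRY4, a feedback inhibitor of receptor signalling, and EPHA2 were lower by 1.42 and 1.10. CCND1, the cell cycle regulator cyclin D1, and PHLDA1 differed by 0.03 and 0.04 and did not pass (adjusted p 0.841 and 0.847). Against sgNTC the median of the 9 was -1.74 in sgKLB and -0.16 in sgFGFR4. In sgFGFR4 3 of the 9 were nonetheless lower than sgNTC and 0 higher, against 7 and 0 in sgKLB. The 3 were ETV4 (-0.29), SPRY4 (-0.54) and EPHA2 (-0.66). Over all 14987 genes, 275 were lower than sgNTC in sgFGFR4 and 2455 in sgKLB.

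Neighbouring feedback genes gave a mixed picture. Of 15 other MAPK feedback and ETS genes 8 were lower and 1 higher (median -0.39). Lower with DUSP5 were IER3 (-1.27 ± 0.0846), an early response gene, the EGFR inhibitor ERRFI1 (-1.17 ± 0.0732) and SPRED2, an inhibitor of RAF activation. DUSP9, another ERK phosphatase, was the exception, at 357, 336 and 339.8 FPKM in sgKLB against 194, 179 and 176 FPKM in sgFGFR4 (difference 0.91 ± 0.0801, adjusted p 2.48e-06). Immediate early genes had 7 lower and 1 higher of 15 (median -0.52). The growth regulator MYC was at 45.5, 47.8 and 43.9 FPKM in sgKLB, 111, 114 and 116 FPKM in sgFGFR4 and 168, 149 and 174 FPKM in sgNTC, 3 separate groups (difference between the knockouts -1.30 ± 0.0823, adjusted p 1.02e-07). Of 22 ribosome biogenesis and MYC target genes 15 were lower and 0 higher, and all 22 estimates were below 0 (median -0.47). RRP12, of ribosome assembly, was lower by 0.96 and the nucleolar genes NOP2 and DKC1 by 0.62 and 0.64.

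Cholesterol synthesis was higher in sgKLB. All 25 listed genes passed the filter, 19 were higher and 1 lower (median 0.60), where 9.27% of all genes were higher. HMGCS1, which starts the pathway, was at 268, 236 and 244 FPKM in sgKLB against 116, 99.5 and 89.9 FPKM in sgFGFR4 (difference 1.29 ± 0.109, adjusted p 1.64e-06). MVD was at 78, 75.5 and 74 against 39, 33.1 and 35.4 FPKM (difference 1.06 ± 0.0857, adjusted p 1.04e-06), and MSMO1 and MVK were higher by 1.23 ± 0.106 and 0.96 ± 0.0906. The groups of these 4 did not overlap.

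Other lipid genes leaned the same way. Fatty acid synthesis and triglyceride storage had 10 higher and 2 lower of 18 (median 0.57). The desaturases SCD and FADS1 were higher by 0.69 ± 0.0607 and 0.78 ± 0.0662, and DGAT2 and PNPLA3 of triglyceride handling by 0.91 ± 0.0802 and 1.21 ± 0.109. The 2 lower ones, ME1 and PLIN2, were near the threshold and lost their calls in 11 and 10 of 15 alternatives. Fatty acid oxidation and PPARA targets had 13 higher and 0 lower of 18 (median 0.59). CPT1A, which admits fatty acids into mitochondria, was at 159, 156 and 149 against 91.3, 101 and 107 FPKM (difference 0.63 ± 0.0748, adjusted p 3.56e-05), and here sgFGFR4 overlapped sgNTC.

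Bile acid genes, the textbook target of FGF19, were in part too low to test. CYP7A1, CYP7B1 and CYP8B1 were below the filter, and of the 11 bile acid synthesis genes above it 5 were higher and 1 lower (median 0.72). BAAT, which conjugates bile acids, was at 107, 95 and 107 FPKM in sgKLB against 36.8, 40.5 and 41 FPKM in sgFGFR4 (difference 1.36 ± 0.0823, adjusted p 7e-08). CYP27A1, of the alternative pathway, was at 15.9, 15.9 and 17.9 against 6.49, 4.92 and 5.81 FPKM (difference 1.39 ± 0.142, adjusted p 9.88e-06), and AKR1D1 and AMACR were higher by 1.29 ± 0.139 and 1.02 ± 0.0801. NR0B2 (SHP), the repressor of bile acid synthesis, was at 9.5, 11.8 and 12.5 FPKM in sgKLB against 33.4, 30.0 and 31.3 FPKM in sgFGFR4 (difference -1.42 ± 0.114, adjusted p 1.08e-06). The sterol exporter ABCG8 was higher by 1.49 ± 0.147, from low levels.

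Secreted liver proteins were higher in sgKLB as well. Apolipoproteins and lipoprotein assembly had 12 higher and 0 lower of 17 (median 0.68), and APOA1 was at 3297, 2933 and 3366 FPKM in sgKLB against 1095, 1103 and 1150.1 FPKM in sgFGFR4 (difference 1.52 ± 0.0903, adjusted p 6.13e-08). Coagulation and fibrinolysis had 15 higher and 1 lower of 24 (median 0.70). KNG1, kininogen, was at 179, 198 and 173 against 61.3, 63.3 and 62.1 FPKM (difference 1.54 ± 0.0678, adjusted p 7.28e-09), and the plasmin inhibitor SERPINF2 was higher by 1.56 ± 0.0719. Plasma carrier and acute phase proteins had 14 higher and 1 lower of 22 (median 0.52). ALB, albumin, was at 13886, 14551 and 13505 FPKM in sgKLB, 7206, 7646 and 7242 FPKM in sgFGFR4 and 6222, 5284 and 6334 FPKM in sgNTC (difference between the knockouts 0.92 ± 0.0784, adjusted p 1.64e-06). The lower one was SERPINA3, an acute phase protein, at -1.45 ± 0.153.

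Complement had 12 higher and 2 lower of 23 (median 0.37), and cytochrome P450 and conjugating enzymes 12 higher and 1 lower of 25 (median 0.48). Among hepatocyte transcription factors 7 were higher and 1 lower of 20 (median 0.30). HNF4A was at 99.4, 114 and 107 FPKM in sgKLB against 73.5, 72.3 and 68.8 FPKM in sgFGFR4 (difference 0.57 ± 0.0663, adjusted p 3.1e-05) and FOXA1 was higher by 0.59 ± 0.0751, while CEBPB was lower by 1.10. The urea cycle enzyme CPS1 was at 15.5, 13.8 and 12.8 against 2.52, 2.45 and 2.32 FPKM (difference 2.13 ± 0.128, adjusted p 6.85e-08). The summed FPKM of the 14 hepatocyte lineage markers ran from 35815 to 36536 in sgKLB, from 22132 to 23371 in sgFGFR4 and from 17871 to 19570 in sgNTC. The 18 stromal, endothelial and immune markers summed to between 256 and 269 FPKM in sgKLB and between 393 and 435 FPKM in sgFGFR4, mostly LYZ (-0.83 ± 0.0987). In bulk libraries a change in the share of cells of a state and a change in RNA per cell cannot be told apart.

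Chemokines and NF-kB response genes had 8 lower and 2 higher of 14 (median -0.55). CCL20, a chemokine, was at 64.9, 71.1 and 73.7 FPKM in sgKLB against 287, 288 and 272 FPKM in sgFGFR4 (adjusted p 1.9e-08), and the adhesion gene ICAM1 and the chemokine CXCL8 were lower by 1.29 and 1.27. For these 3 genes sgKLB lay below both other groups. Interferon response and antigen presentation had 6 higher and 0 lower of 27 (median 0.25), where 9.27% of all genes were higher. Between 3 and 7 of them were higher over the alternatives, and IFIT1 differed by 1.37 ± 0.214. Among glucose genes, HK2, a hexokinase of growing cells, was at 17.1, 14.9 and 17.1 against 44.3, 45.8 and 47.5 FPKM (difference -1.44 ± 0.0774, adjusted p 2.91e-08), and the angiogenic factor VEGFA and the mitochondrial PCK2 were lower by 1.06 and 1.17. IGFBP1, the insulin-regulated binding protein of IGFs, was at 1.49, 0.92 and 1.23 FPKM in sgKLB, 5.08, 10.9 and 17.6 FPKM in sgFGFR4 and 48.8, 58.5 and 46.1 FPKM in sgNTC (difference between the knockouts -2.33 ± 0.286, adjusted p 4.96e-05). For IGFBP1 the 3 groups were separate, with the sgFGFR4 libraries spread widely between the others. As a list, glycolysis and hypoxia had 3 higher and 4 lower of 24 (median -0.10), beside 9.27% of all genes higher and 10.1% lower.

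Between the 2 knockouts, proliferation genes stayed near the background in JHH-7, where 9.27% of all genes were higher and 10.1% lower. Of 30 DNA replication and nucleotide supply genes 3 were higher and 1 lower (median 0.07), and of 25 mitosis genes 0 were higher and 2 lower (median -0.15). Against sgNTC, 19 replication genes were higher and 1 lower in sgKLB (median 0.44), and 11 and 0 in sgFGFR4 (median 0.37). Of the mitosis genes, 7 were higher and 2 lower in sgKLB, and 6 and 0 in sgFGFR4. Over all 14987 genes, 2326 were higher than sgNTC in sgKLB and 362 in sgFGFR4. TPX2 was at 108, 112 and 105 FPKM in sgKLB against 141, 139.7 and 128 FPKM in sgFGFR4 (difference -0.32 ± 0.0544, adjusted p 0.000741). The unfolded protein response was split, with 3 higher and 5 lower of 19 (median -0.06), and its factor XBP1 was at 306, 340.1 and 314 against 598, 618 and 611 FPKM (difference -0.93 ± 0.0529, adjusted p 4.34e-08). Mesenchymal transition genes had 2 higher and 2 lower of 9 (median -0.03), with the crosslinking enzyme LOX lower by 1.22. Oncofetal genes had 4 higher and 2 lower of 14 (median 0.15). GPC3, a liver cancer surface antigen, was at 1244, 1231 and 1229.8 against 626, 683 and 691 FPKM (difference 0.89 ± 0.0651, adjusted p 4.32e-07), and SOX4 and SOX9 were lower by 0.80 and 0.42.

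Growth and stress lists had members in both directions, again beside 9.27% of all genes higher and 10.1% lower. Of 17 p53 targets 3 were higher and 6 lower (median -0.25), and the pro-apoptotic BBC3 and the death receptor TNFRSF10B were lower by 1.03 and 0.80. Of 20 NRF2 and redox genes 6 were higher and 4 lower (median 0.13). HMOX1, haem oxygenase, was at 94.6, 95.6 and 94.2 FPKM in sgKLB against 37.7, 40.4 and 38.1 FPKM in sgFGFR4 (difference 1.27 ± 0.105, adjusted p 1.33e-06). SLC7A11, the cystine importer, which stands on the transporter and NRF2 lists, was at 2.12, 2.97 and 2 against 9.2, 9.7 and 9.51 FPKM (difference -1.65 ± 0.189, adjusted p 2.71e-05). The 2 redox genes differed in opposite directions, each with separate groups. Growth factor ligands had 1 higher (IGF2) and 5 lower of 15 (median -0.17).

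Receptor, matrix and junction genes had calls in both directions, to be read against 9.27% of all genes higher and 10.1% lower. Of 18 other receptor tyrosine kinases 5 were higher and 1 lower (median -0.03). EGFR was at 17.9, 21.4 and 18 FPKM in sgKLB against 11.5, 10.9 and 11.8 FPKM in sgFGFR4 (difference 0.69 ± 0.111, adjusted p 0.0005), with sgNTC below both. Of 20 integrins, laminins and collagens 6 were higher and 2 lower (median 0.39), and COL18A1, the collagen that holds endostatin, was higher by 1.17 ± 0.0876. Epithelial junction and keratin genes had 4 higher and 4 lower of 14 (median 0.03). The cadherin CDH1 was at 14.2, 11.1 and 9.63 against 4.27, 4.33 and 6.52 FPKM (difference 1.07 ± 0.16, adjusted p 0.000285), and the keratin KRT23 was lower by 1.01. WNT feedback targets had 4 higher and 0 lower of 16 (median 0.25), and 2 of the 4, TCF7 and AXIN2, lost their calls in some alternatives. YAP and TEAD targets had 2 higher and 4 lower of 15 (median -0.11), with ANKRD1 lower by 1.23. Actin and SRF-type genes had 4 higher and 0 lower of 16 (median 0.11).

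Hepatocyte metabolism beyond lipids followed the liver enzymes in part, beside 9.27% of all genes higher and 10.1% lower. Urea cycle and amino acid catabolism had 6 higher and 1 lower of 18 (median 0.32), and GPT, alanine aminotransferase, was higher by 1.24 ± 0.186. Gluconeogenesis and glucose handling had 6 higher and 3 lower of 15 (median 0.15). SLC2A2, the glucose transporter of hepatocytes, was at 8.32, 9.81 and 10.6 FPKM in sgKLB against 3.07, 3.1 and 2.35 FPKM in sgFGFR4 (difference 1.46 ± 0.171, adjusted p 3.21e-05). The 3 lower genes were IGFBP1, PCK2 and TXNIP, the last an inhibitor of thioredoxin (-0.82 ± 0.151). Bile acid transport and FXR genes had 4 higher and 1 lower of 11 (median 0.06), the lower one being NR0B2. The number higher in this list ran from 1 to 5 over the alternatives, and SLCO1B1, NR5A2 and ABCC3 lost their calls in some. Mitochondrially encoded genes had 2 higher and 0 lower of 13 (median 0.17), not far from the share of all genes. Between 1 and 5 of them were higher over the alternatives. MT-CYB was higher by 0.37 ± 0.0769, and MT-ND6 lost its call in 6 of 15 alternatives.

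The same comparison in HuH-7 was set beside that in JHH-7. A fit over all 27 libraries and 16731 genes tested whether the sgKLB minus sgFGFR4 difference differed between JHH-7 and HuH-7. It did so for 1401 genes (8.37%), 708 with a more positive difference in JHH-7 and 693 with a more negative one. In that fit 2830 genes differed between the knockouts in HuH-7 (16.9%). KLB and FGFR4 did not pass the test of the line difference (adjusted p 0.317 and 0.458). A gene that does not pass this test is not thereby shown to differ equally in both lines. FGF19 went in opposite directions, 1.08 ± 0.0911 in HuH-7 (adjusted p 4.73e-08) where it was lower in JHH-7, with a line difference of -2.34 ± 0.129 (adjusted p 2.19e-10).

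Of the 41 lists, the ATF4 list had the largest share of members past the test of the line difference. Of its 28 members in the fit of both lines 26 were more negative in JHH-7 and 0 more positive, with medians of -1.21 in JHH-7 and 0.05 in HuH-7. In HuH-7 3 members were higher in sgKLB and 2 lower. ASNS was at 63.1, 67.4 and 70.5 FPKM in HuH-7 sgKLB and at 65.2, 69.4 and 68.9 FPKM in HuH-7 sgFGFR4, groups that overlapped (line difference -2.52 ± 0.162, adjusted p 1.08e-09). DDIT4 was at 25.4, 24.4 and 25.5 against 24.5, 20.7 and 23.5 FPKM there (line difference -3.28 ± 0.218, adjusted p 1.7e-09). NUPR1, a stress-induced chromatin protein, was higher in HuH-7 sgKLB, at 219, 193 and 204 against 117, 133 and 132 FPKM, and lower in JHH-7 sgKLB (line difference -1.23 ± 0.194, adjusted p 0.000211).

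Cholesterol synthesis and proliferation differed between the lines too. Of 25 cholesterol genes 17 were more positive in JHH-7 and 0 more negative, with medians of 0.60 and 0.01. HMGCS1 was at 487, 498 and 483 FPKM in HuH-7 sgKLB and at 509, 571 and 508 FPKM in HuH-7 sgFGFR4 (line difference 1.40 ± 0.171, adjusted p 1.02e-05). In HuH-7, 24 of 30 replication genes and 24 of 25 mitosis genes were lower in sgKLB, with medians of -0.52 and -0.60. For 14 genes of each list the line difference passed, all more positive in JHH-7. MKI67, a marker of cycling cells, was at 14.1, 16.4 and 13.4 FPKM in HuH-7 sgKLB against 33.5, 36.1 and 34.2 FPKM in HuH-7 sgFGFR4 (line difference 1.35 ± 0.201, adjusted p 0.000113).

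The MAPK signature was lower in both lines. In HuH-7 8 of its 9 genes were lower (median -0.67), and the line difference passed for 3, of which 2 were more negative and 1 more positive in JHH-7. ETV4 was lower in HuH-7 too (-1.10 ± 0.0881, adjusted p 2.32e-08), and more so in JHH-7 (line difference -0.45 ± 0.125, adjusted p 0.0269). DUSP6 did not pass the test of the line difference (-0.67 ± 0.232, adjusted p 0.0779). SERPINF2 was higher by 1.61 ± 0.074 in HuH-7, where the line difference was -0.05 ± 0.105 (adjusted p 0.834). Ribosome biogenesis genes were lower in 14 of 22 cases in HuH-7, and 2 passed the test of the line difference. Over all 16731 genes, 1690 were lower in HuH-7 sgKLB and 8.37% passed the test of the line difference. For ribosome biogenesis genes the share past that test was thus near that of all genes.

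**Figure D3:**
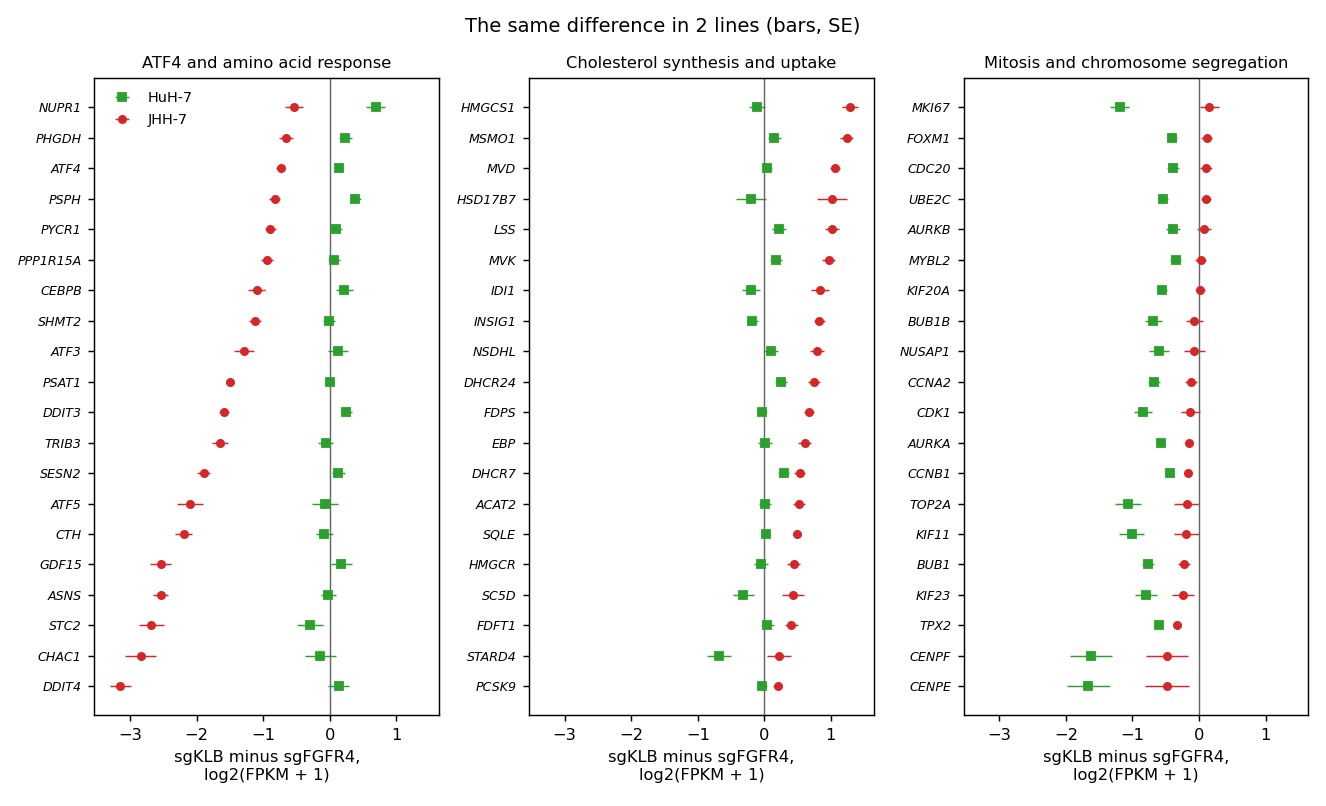
Differences of sgKLB minus sgFGFR4 with their SE on the log2(FPKM + 1) scale in JHH-7 (red circles) and HuH-7 (green squares) for 3 gene lists, from the fit over 27 libraries. Each panel shows the 20 members with the smallest adjusted p for the line difference, a choice that favours a gap between the lines. The medians are those of the whole lists. ATF4 genes lie below 0 in JHH-7 and around 0 in HuH-7 (median 0.05), and cholesterol genes above 0 in JHH-7 alone (medians 0.60 and 0.01). Mitosis genes lie below 0 in HuH-7 (median -0.60), and their median in JHH-7 was -0.15.

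The other JHH-7 receptor knockouts, given as levels, placed sgKLB on a wider scale. Mean FPKM of DDIT4 was 296 in sgFGFR3/4 and 32.5 in sgFGFR1/3/4, against 30.5 in sgKLB and 267 in sgFGFR4. ASNS followed the same order of groups, with means of 341 in sgFGFR3/4, 68.9 in sgFGFR1/3/4 and 49.6 in sgKLB. HMGCS1 had means of 94.5 in sgFGFR3/4, 245 in sgFGFR1/3/4 and 249 in sgKLB. Liver genes varied in this respect. APOC3 had a mean of 227 FPKM in sgFGFR1/3/4, near sgNTC at 204, against 953 in sgKLB. GSTA1 had 36.3 FPKM in sgFGFR1/3/4 against 131 in sgKLB. BAAT had 71.2 against 103 FPKM, and NR0B2 13.4 against 11.3 FPKM. The summed hepatocyte lineage markers of sgFGFR1/3/4, 28207 to 29241 FPKM, lay between those of sgFGFR4 and sgKLB. These groups were not tested against sgKLB here.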

How the data were processed

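RNA was sequenced from 27 libraries of JHH-7 and HuH-7 cells in 9 groups of 3. The authors deposited 1 table of FPKM values per line, made with RSEM on the genome GRCh38 per the submitters' processing notes; the unit is not named in the tables, and it was taken from the values, which fit fragments per kilobase scaled to library depth. For aligner, tool versions and annotation, nothing was stated in the sources read. Each row pairs a gene identifier with a symbol, and positions came from GENCODE 29.

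FPKM values are not counts, so limma 3.58.1 (R 4.3.3, statmod 1.5.0; trend and robust options) was run on log2(FPKM + 1) of all 15 JHH-7 libraries, which share 1 estimate of the spread. Genes needed 1 FPKM in 3 libraries, p-values were Benjamini-Hochberg adjusted over all genes tested, and a gene was called at an adjusted p under 0.05. The line difference came from a fit of all 27 libraries. The script was tested on simulated data. The steps between FPKM values gave estimated depths of 16.1 M to 19.5 M fragments in the 6 libraries, with 90.0% to 92.4% of low values within 0.1 of a whole fragment; the recovered fragments were not tested as counts. Replicates of sgFGFR1/3/4 differed from each other by a mean chi-square per gene of 2.07 to 2.29, against 3.33 to 10.7 in the other 8 groups, and they enter the shared spread.

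Named genes were KLB, the FGF receptors and FGF19, the 12 largest called differences in each direction among protein-coding genes with a mean log2 value of at least 3 and separate groups, up to 4 per direction and list by smallest p, and the 5 largest line differences in each direction. ATF4, ATF5, TRIB3, CEBPG, AARS, MARS, ALDH18A1, CCND1, PHLDA1, NUPR1 and MKI67 are shown outside this rule and were chosen after their values were seen. Alternatives covered the pseudocount, the filter, TPM and quantile scaling, the replicate block, each library left out, the 2 groups alone, the robust option and, added after seeing the data, a correction for transcript length and GC content. The groups, the gene lists and the comparison were chosen with earlier results of these data known. Results of some genes that the rule names are not reported here.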

Additional observations from a re-analysis of the deposited data

Results flagged for a closer look

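The difference between sgKLB and sgFGFR4 was not the same in JHH-7 and HuH-7 for 1401 of 16731 genes, by limma's test of the line difference at an adjusted p of 0.05. Line differences here are the JHH-7 difference minus the HuH-7 difference in log2(FPKM + 1). The 5 largest positive ones were 1.89 ± 0.309 for LCAT, 1.78 ± 0.486 for SP5, a WNT-induced transcription factor, 1.74 ± 0.239 for CRYBG1, 1.69 ± 0.368 for CARD16, a caspase-1 regulator, and 1.68 ± 0.158 for HSPA1B. Their adjusted p-values in that test were 0.000307, 0.0243, 4.3e-05, 0.00501 and 2.54e-07. The 5 largest negative ones were -3.28 ± 0.218 for DDIT4, -2.72 ± 0.224 for GDF15, -2.70 ± 0.325 for CHAC1, -2.64 ± 0.542 for S100A9 and -2.52 ± 0.162 for ASNS. DDIT4, GDF15, CHAC1 and ASNS are on the ATF4 list, and their adjusted p-values in limma's test were 1.7e-09, 3.44e-08, 8.71e-06 and 1.08e-09, with 0.00297 for S100A9.

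S100A9 was at 1.82, 0.51 and 2.3 FPKM in HuH-7 sgKLB and at 0.88, 2.13 and 0.22 FPKM in HuH-7 sgFGFR4. SP5 was at 13.5, 11 and 15.1 against 38.3, 13.3 and 41.1 FPKM there. The HuH-7 groups overlapped for S100A9, whose difference did not pass there (adjusted p 0.643 by limma), and for SP5 through sgFGFR4 replicate 2 (difference -1.03 ± 0.344, adjusted p 0.0437).

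Among the receptors and the ligand, FGFR3 had a line difference of 0.48 ± 0.0798 (adjusted p 0.000326) and FGF19 of -2.34 ± 0.129 (adjusted p 2.19e-10), both by limma's test over 16731 genes. FGFR3 was at 107, 96.8 and 106 FPKM in HuH-7 sgKLB and at 117, 109 and 111 FPKM in HuH-7 sgFGFR4. FGF19 was at 20.1, 18 and 19.3 FPKM in HuH-7 sgKLB and at 8.51, 8.01 and 9.03 FPKM in HuH-7 sgFGFR4, so it was higher in sgKLB there and lower in sgKLB in JHH-7.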

How the results depend on the processing

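The count of 2900 genes between sgKLB and sgFGFR4 lay between 2064 and 2372 with any of the 6 libraries left out and between 2196 and 3297 under the other alternatives, the ends being no filter on low values and the length and GC correction. The count for sgFGFR4 against sgNTC, 637 genes, was 337 with no filter and ran from 222 to 842 over the libraries left out one at a time; the cause was not tested. The 1401 line differences ran from 1047 to 1817. Of 212 named genes called between the knockouts, 174 kept the call in all 15 alternatives, 38 lost it in at least 1, and 0 changed sign; of 12 line differences 10 kept it, and SP5 and S100A9 lost it in some, with adjusted p up to 0.0741 and 0.130. The replicate numbers do not pair the samples: deviations of same-numbered sgKLB and sgFGFR4 libraries correlated at -0.00402 to 0.0361, those of other pairs at -0.0495 to 0.041. With a replicate block the counts were 2656 between the knockouts, 4563 for sgKLB and 498 for sgFGFR4 against sgNTC, and 1152 line differences. The difference between the knockouts rose with transcript GC content across 14977 genes (Spearman 0.208) and hardly with length (0.0217); genes are not independent replicates.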
